A study of Mus musculus with 12 samples.

Results

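Microglia display antigen to lymphocytes through MHC molecules and second signals on their surface, and 6 genes of this machinery were present among the 770 genes of the nCounter Neuroinflammation panel. They were chosen by name from the rows of the deposited table and were *Cd74*, *Cd86*, *Cd83*, *Cd40*, *H2-T23* and *Mr1*. The panel counts RNA molecules with a colour-coded probe per gene, without amplification, in RNA from sorted microglia of untreated C57B6 mice. The comparisons were made between aged microglia with high ERK1/2 phosphorylation (P-ERK1/2 High, samples 2, 5, 7 and 8), aged microglia with low ERK1/2 phosphorylation (P-ERK1/2 Low, samples 3, 6, 9 and 12) and adult microglia sorted without regard to P-ERK1/2 (samples 1, 4 and 10). Adult mice were 12 to 20 weeks old and aged mice were over 80 weeks old. Each sample pooled the CNS of 2 mice, 1 male and 1 female, so the spread between samples is the spread between pools. Whether a P-ERK1/2 High and a P-ERK1/2 Low sample were taken from the same mice is not stated in the labels, and the samples were compared as separate pools. Cells in all groups were enriched on CD11b, then fixed, permeabilised and stained for P-ERK1/2 before the sort, and the study's gate took YFP+ CD45 intermediate Ly6G- cells. YFP is expressed from the *Cx3cr1* locus in Cre reporter mice, which leaves the cells hemizygous for *Cx3cr1*, although the labels give no genotype. The labels call the mice untreated, while the study's legend for these populations mentions Tamoxifen. A further adult sample, number 11, was marked by the authors as excluded for its quality and was left out of the comparisons.

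The genes fall into 3 roles. *Cd74* encodes the invariant chain, which occupies the peptide groove of MHC class II molecules until they reach the compartment where peptide is loaded. *Cd86* encodes a ligand of CD28 and CTLA-4 on T cells, *Cd83* encodes a surface protein that stabilises MHC class II and CD86 at the membrane, and *Cd40* encodes the receptor through which activated T helper cells signal to the presenting cell by CD40 ligand. *H2-T23* and *Mr1* encode MHC class I-like molecules of limited variation: the first, Qa-1, binds NKG2A receptors on NK and CD8 T cells, and MR1 shows microbial vitamin B metabolites to MAIT cells. Homeostatic microglia carry MHC class II and costimulatory molecules at low levels, and both are known to rise in reactive microglia.

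Signal depth differed between the groups. The summed counts, recovered from the deposited values, ran from 650965 to 1539936 for P-ERK1/2 High, from 123798 to 157209 for P-ERK1/2 Low and from 137980 to 326575 for adult samples. Background was set, sample by sample, at the mean plus 2 SD of the counts of the 8 negative control probes. On the scale of the normalized values this background lay between 26.1 and 39.5 for P-ERK1/2 High, 69.2 and 117 for P-ERK1/2 Low and 37.9 and 95.1 for adult samples. Another reference, the mean plus 2 SD of 10 neuronal genes, lay higher than this background in every P-ERK1/2 High sample and was exceeded by *Cd74* and *Cd83* in 4 of 4 P-ERK1/2 High samples, by *H2-T23* in 2, by *Cd86* in 1 and by *Mr1* and *Cd40* in 0. All 9 microglial markers (*Tmem119*, *P2ry12*, *Sall1*, *Cx3cr1*, *Gpr34*, *Fcrls*, *Olfml3*, *Csf1r* and *Itgam*) were above background in every P-ERK1/2 High sample, whereas *P2ry12* and *Gpr34* were above it in 0 of 4 P-ERK1/2 Low samples. The summed level of the 9 markers was 4397 to 5815, 4161 to 4590 and 4188 to 4616 in P-ERK1/2 High, P-ERK1/2 Low and adult samples. *Csf1r* and *Itgam* made up most of this sum, so it does not describe the rest of the list. *Fcrls* had means of 262, 137 and 672 and *Olfml3* of 217, 210 and 622, in the same order of groups.

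In aged microglia, *Cd74*, *Cd86* and *Cd83* were higher in P-ERK1/2 High than in P-ERK1/2 Low cells, by 4.84-fold, 3.12-fold and 3.99-fold, with no overlap between the groups. With each sample scaled to its total these became log2 differences of 1.25, 0.62 and 0.97 and none of the 3 was called. *H2-T23* and *Mr1* did not pass the test between these populations, and *Cd40* lay near background in both. Genes were called at p under 0.01 in limma and a log2 fold change beyond 1 in either direction, the thresholds of the study. *Cd40* was above background in at most 1 sample of any group and was left out of the counts. Of the other 5 genes, 3 were called, all higher in P-ERK1/2 High, against 37.8% of all 770 genes called and 28.2% called higher. At numbers this small, 3 of 5 does not set the genes apart from the panel. The direction of the panel calls depended on the scaling of the samples: 217 higher and 74 lower genes became 59 and 311 with each sample scaled to its total, and 359 and 4 with the 6 most stable housekeeping genes. The groups did not overlap for the same 3 of the 5, where 49.4% of all genes did not overlap. The median log2 fold change was 1.64 over the 5 genes and 0.26 over the panel. The panel figures keep genes near background and so are not filtered as the 5 genes are. With *Cd40* counted, 3 of 6 genes were called, 4 of 6 did not overlap and the median was 1.03.

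**Figure D1:**
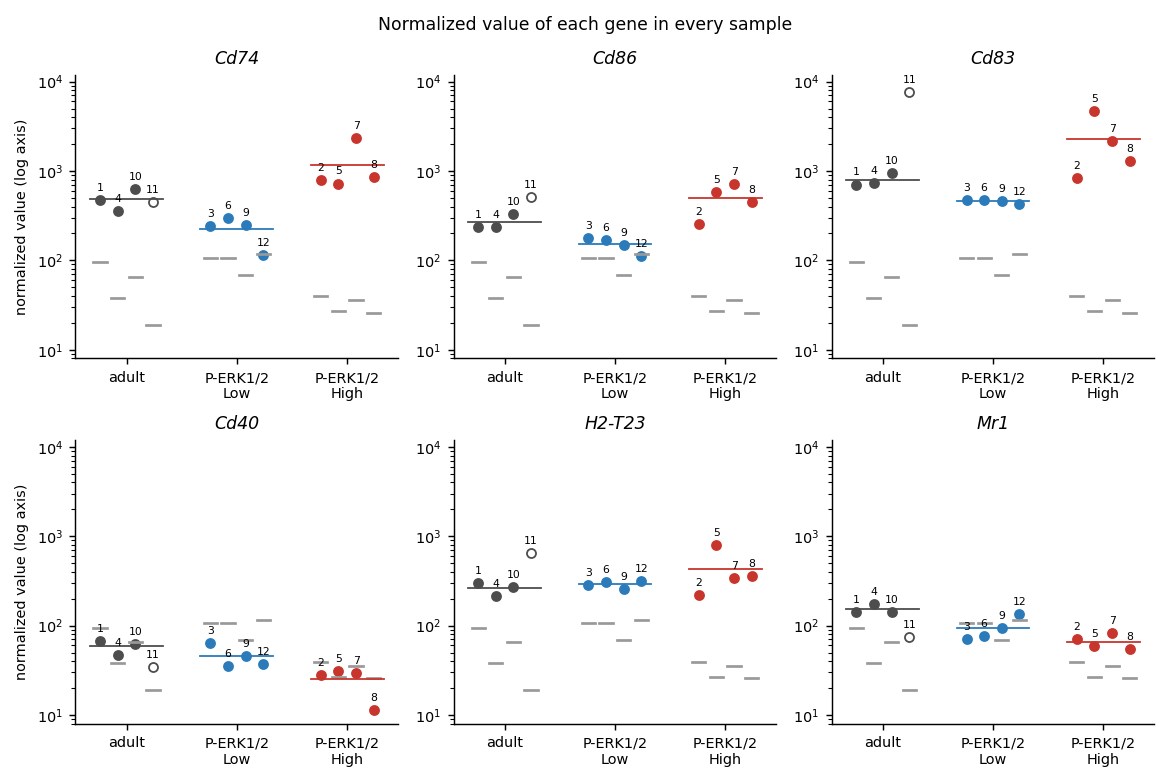
Normalized value (log axis) of each of the 6 genes in every sample, labelled by sample number, with group means as horizontal lines (adult sample 11, drawn open, is not in the mean) and the background of each sample as a short grey line. *Cd74*, *Cd86* and *Cd83* of the 4 P-ERK1/2 High samples lie above those of all 4 P-ERK1/2 Low samples, and *Cd40* lies at or below background in most samples.

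The class II chaperone *Cd74* had normalized values of 790, 724, 2356 and 855 in P-ERK1/2 High samples 2, 5, 7 and 8. In P-ERK1/2 Low samples 3, 6, 9 and 12 it had values of 244, 294, 251 and 115. The adult samples 1, 4 and 10 lay between, at 476, 360 and 633. The 3 groups did not overlap, and the lowest P-ERK1/2 High sample was 2.46-fold above the highest P-ERK1/2 Low sample. Sample 7 stood apart at 2356, and the other 3 P-ERK1/2 High samples were within 724 to 855. P-ERK1/2 High averaged 1181 ± 785 (SD, n = 4) and P-ERK1/2 Low 226 ± 77.5 (SD, n = 4), a log2 fold change of 2.27 with SE 0.40 and a limma adjusted p of 7.1e-04. It ranked 50th of the 770 genes by increase. The value of 115 in sample 12 came from 28 counts and lay below that sample's background of 117. With any 1 sample left out the log2 fold change was 1.88 to 2.45 and the call held, also without sample 7 or sample 12.

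*Cd86*, the CD28 ligand, was measured at 254, 583, 720 and 445 in P-ERK1/2 High samples 2, 5, 7 and 8. The P-ERK1/2 Low samples gave 176, 168, 150 and 111. In adult samples 1, 4 and 10 it reached 234, 235 and 329. All P-ERK1/2 High samples were above all P-ERK1/2 Low samples, and sample 2 fell within the adult range. The P-ERK1/2 High mean was 501 ± 199 (SD, n = 4) and the P-ERK1/2 Low mean 151 ± 29.2 (SD, n = 4), with a log2 fold change of 1.64, SE 0.32 and a limma adjusted p of 0.0012. Sample 12 was again the lowest P-ERK1/2 Low sample, with 27 counts and a value under its background, and *Cd86* was above background in the other 3.

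For *Cd83*, which keeps CD86 and MHC class II at the surface, the values in P-ERK1/2 High samples 2, 5, 7 and 8 were 834, 4735, 2158 and 1290. The P-ERK1/2 Low samples 3, 6, 9 and 12 held 471, 470, 463 and 423. Adult samples 1, 4 and 10 held 706, 739 and 939. The P-ERK1/2 Low samples were nearly level, their highest value being 1.11-fold their lowest, while the P-ERK1/2 High samples spread over 5.68-fold. The means were 2254 ± 1743 (SD, n = 4) and 457 ± 22.9 (SD, n = 4), with a log2 fold change of 1.99, SE 0.43 and a limma adjusted p of 0.0024. In a plain test with unequal variances and no shared spread the adjusted p was 0.072 and *Cd83* was not called. That test called fewer genes over the panel too, 156 higher and 33 lower against 217 and 74. Which of its changes moved *Cd83* was not tested. Counts of *Cd83* were well above background in all 11 samples, between 103 and 173 for P-ERK1/2 Low and between 685 and 6624 for P-ERK1/2 High.

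The P-ERK1/2 High samples were not ordered alike for these genes. Sample 5 was the highest of the 4 for *Cd83* and the lowest for *Cd74*, sample 7 was the highest for *Cd74* and *Cd86*, and sample 2 was the lowest for *Cd86* and *Cd83*. Among P-ERK1/2 Low samples, sample 12 was the lowest for *Cd74*, *Cd86* and *Cd83* and the highest for *H2-T23* and *Mr1*.

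The receptor *Cd40* gave values of 28.0, 31.5, 29.2 and 11.4 in P-ERK1/2 High samples 2, 5, 7 and 8. The P-ERK1/2 Low samples gave 64.4, 35.1, 45.5 and 36.9. In adult samples 1, 4 and 10 they were 68.1, 46.6 and 61.8. The gene was above background in 1 of 4 P-ERK1/2 High samples (sample 5), in 0 of 4 P-ERK1/2 Low samples and in 1 of 3 adult samples (sample 4), from 9 to 44 counts per sample. The normalized background was itself lower in P-ERK1/2 High than in P-ERK1/2 Low, and *Cd40* moved with it, so its differences are differences of values near background and are not read as a change of the gene. Its values passed the thresholds in P-ERK1/2 High against adult, and after subtraction of the negative control mean the sign between the aged populations turned. At this depth no level of *Cd40* above background could be compared between the groups.

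The class I-like genes are shown with the sequence around their transcription start, because they are the 2 of the 6 for which a RefSeq promoter sequence was at hand. Each runs 5′ to 3′ on the strand of the gene, from 250 bases before to 50 bases after the start, in build GRCm38.p6. *H2-T23* lies at chr17:36032652-36032951 and *Mr1* at chr1:155146765-155147064, both on the minus strand. Capitals mark a match to 1 of 4 short motifs searched on both strands: CCAAT (the NF-Y box), GAAANNGA (interferon regulatory factors), GGGNNTTCC (NF-kB) and TGACG (CREB).
H2-T23: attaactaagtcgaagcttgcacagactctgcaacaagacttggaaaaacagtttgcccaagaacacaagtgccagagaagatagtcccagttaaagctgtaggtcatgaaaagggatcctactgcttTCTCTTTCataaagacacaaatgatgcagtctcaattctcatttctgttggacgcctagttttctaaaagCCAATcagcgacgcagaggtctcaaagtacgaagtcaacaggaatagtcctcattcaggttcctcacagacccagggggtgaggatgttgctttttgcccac
Mr1: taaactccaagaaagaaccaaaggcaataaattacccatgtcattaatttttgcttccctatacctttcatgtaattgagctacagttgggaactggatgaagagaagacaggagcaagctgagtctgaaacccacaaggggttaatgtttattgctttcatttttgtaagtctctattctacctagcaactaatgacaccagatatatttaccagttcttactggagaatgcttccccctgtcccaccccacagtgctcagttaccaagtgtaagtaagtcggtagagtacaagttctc
The *H2-T23* window held CCAAT at position 199 and GAAANNGA, read on the opposite strand, at position 129, counted from the 5′ end. The *Mr1* window held none of the 4. Among 32544 promoter windows of the same length, 37.4% held CCAAT, 20.9% GAAANNGA, 5.85% GGGNNTTCC and 20.9% TGACG. A match or its lack describes only these letters.

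*H2-T23*, the gene of the NKG2A ligand Qa-1, had values of 223, 808, 344 and 359 in P-ERK1/2 High samples 2, 5, 7 and 8. The P-ERK1/2 Low samples 3, 6, 9 and 12 had 285, 305, 257 and 316. Adult samples 1, 4 and 10 had 299, 217 and 272. All groups overlapped, and only sample 5 stood out. The log2 fold change of P-ERK1/2 High over P-ERK1/2 Low was 0.41 with a 95% interval of -0.33 to 1.15 and a limma adjusted p of 0.32. Without sample 5 it was 0.06.

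*Mr1*, the MAIT cell ligand, had values of 70.6, 58.6, 82.0 and 54.5 in P-ERK1/2 High samples 2, 5, 7 and 8. The P-ERK1/2 Low samples 3, 6, 9 and 12 gave 71.2, 77.1, 93.6 and 135, and only samples 9 and 12 were above background. Adult samples 1, 4 and 10 were higher, at 143, 175 and 141. Both aged populations lay below the adult samples without overlap, although P-ERK1/2 Low sample 12, at 135, came close to the lowest adult sample. Between the aged populations the log2 fold change was -0.47 with a 95% interval of -1.03 to 0.09 and a limma adjusted p of 0.14.

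Compared with adult microglia, aged P-ERK1/2 Low cells had lower values of *Cd74*, *Cd86*, *Cd83* and *Mr1* with no overlap between the groups, but 0 of these 5 genes, *H2-T23* being the other, were called, against 10.8% of all genes. The 2 comparisons with adult samples share those samples, and each shares an aged group with the first comparison, so they are not independent of each other. Adult cells were not split by P-ERK1/2, and no unsplit aged sample was profiled. Age and the P-ERK1/2 gate therefore cannot be told apart in either comparison with adult. Groups that did not overlap were seen for 4 of the 5 genes, all lower in P-ERK1/2 Low, where 36.5% of all genes did not overlap and 10.4% were lower without overlap. With *Cd40* counted, 0 of 6 genes were called and 4 of 6 did not overlap. *Cd83* differed by a log2 fold change of -0.79 with SE 0.15 and a limma adjusted p of 0.0079, past the p threshold but within the fold limit. *Cd86* differed by -0.81 with SE 0.21 and a limma adjusted p of 0.027, within the fold limit too. *Cd74* differed by -1.16 with SE 0.34, past the fold limit, but its unadjusted p of 0.0102 lay just above the threshold (limma adjusted p of 0.043). This call turned with small changes of the setting: *Cd74* was called without adult sample 4, at -1.36, without P-ERK1/2 Low sample 6, at -1.31, and with all 4 adult samples, at -1.13. *Mr1* differed by -0.73 with SE 0.24 and a limma adjusted p of 0.056. The count of 0 held only for the deposited scaling among the 7 tried. *Cd74* was called with median-of-ratios scaling, at -1.27, and with the 6 most stable housekeeping genes, at -1.21, and *Cd74*, *Cd86* and *Cd83* were called with quantile normalization, at -1.53, -1.18 and -1.17. Scaling to the total, no scaling and the positive controls called these 3 and *Mr1*, which lay between -1.56 and -1.12. All 4 genes were lower in P-ERK1/2 Low under all 7 scalings. For *H2-T23* the log2 fold change was 0.15 with a 95% interval of -0.22 to 0.53. By limma adjusted p under 0.05 alone *Cd74*, *Cd86* and *Cd83* passed, 3 of 5 genes where 26.1% of all genes did.

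Compared with adult microglia, aged P-ERK1/2 High cells had less *Mr1*, by 2.30-fold on the deposited scale, and *Cd74* was higher in all 4 samples without passing the threshold. The call of *Mr1* was lost under 3 of 7 scalings, with no scaling at -0.38, with the positive controls alone at -0.04 and with the 6 most stable housekeeping genes at -0.49. *Mr1* fell from 153 ± 19.0 (SD, n = 3) to 66.4 ± 12.4 (SD, n = 4), a log2 fold change of -1.20 with SE 0.25 and a limma adjusted p of 0.0030, and every adult sample was at least 1.72-fold above every P-ERK1/2 High sample. It was called with any 1 sample left out, between -1.31 and -1.10, but with all 4 adult samples the value was -0.94 and not called. Adult sample 11 had a *Mr1* value of 73.7, within the P-ERK1/2 High range. With *Cd40* again left out, *Mr1* was the 1 of 5 genes called, against 36.9% of all genes called and 7.66% called lower. With *Cd40* counted, 2 of 6 were called, and the panel figures again keep genes near background. The panel split of 225 higher and 59 lower became 40 and 362 with each sample scaled to its total, and 354 and 5 with the 6 most stable housekeeping genes. *Cd74* had a log2 fold change of 1.12 with SE 0.41 and a limma adjusted p of 0.044, and did not overlap with adult samples. *Cd83* and *Cd86* had log2 fold changes of 1.21 with SE 0.49 and 0.83 with SE 0.35, with limma adjusted p-values of 0.064 and 0.075, and overlapped with adult samples through sample 2. Without sample 2 both were called, at 1.58 and 1.12. Of the 5 genes, *Mr1* and *Cd74*, 2 in all, did not overlap between P-ERK1/2 High and adult, where 50.3% of all genes did not. With *Cd40* counted, 3 of 6 did not overlap.

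**Figure D2:**
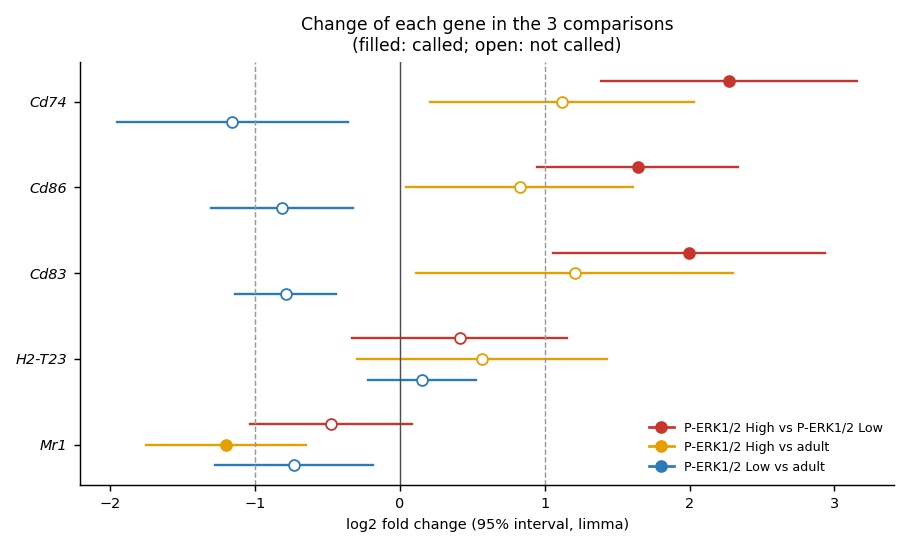
Log2 fold change of 5 of the genes (*Cd40*, near background, is not drawn) with its 95% interval from limma in the 3 comparisons, with dashed lines at the fold limit of 1 and filled points for called genes. *Cd74*, *Cd86* and *Cd83* are called in P-ERK1/2 High relative to P-ERK1/2 Low, and *Mr1* in P-ERK1/2 High against adult, while none is called in P-ERK1/2 Low against adult.

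The order of the group means was P-ERK1/2 High, adult, P-ERK1/2 Low for *Cd74*, *Cd86* and *Cd83*, and adult, P-ERK1/2 Low, P-ERK1/2 High for *Mr1*, on the deposited scale. With each sample scaled to its total the first order turned between P-ERK1/2 High and adult. Neighbours in the first order were separated without overlap for *Cd74*, whereas P-ERK1/2 High and adult overlapped for *Cd86* and *Cd83*. In the second order the aged populations overlapped. For *H2-T23* no neighbours differed beyond their spread.

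These values rest on the scaling of the samples. The authors brought the 13 housekeeping genes to the same geometric mean of 172.7 in every sample. These genes differed between the groups themselves. In P-ERK1/2 High relative to P-ERK1/2 Low, *Supt7l* was called higher, at 3.34, and *Lars* lower, at -1.225. The 6 most stable, *Lars* among them, were all lower there, from -1.225 to -0.52. In P-ERK1/2 High against adult 3 of the 13 were called higher and 1 lower. The panel-wide median change, in log2 units, in P-ERK1/2 High relative to P-ERK1/2 Low ran from -0.75 to 2.15 over 7 scalings. *Cd74*, *Cd86* and *Cd83* were higher under all 7, by 1.25 to 4.24, 0.62 to 3.61 and 0.97 to 3.98 on the log2 scale. They were called under 6 of the 7 and not when each sample was scaled to its total. The direction of *H2-T23* and *Mr1* between the aged populations flipped with the scaling. Of the 7 scalings, 6 multiply each sample by a factor, which shifts its genes together, so that the position of a gene relative to the panel median moves little by construction. Quantile normalization is not such a factor and gave the lowest positions of *Cd74*, *Cd83*, *Cd86* and *H2-T23*. Over all 7, *Cd74* lay 1.85 to 2.09 above it, *Cd83* 1.47 to 1.82, *Cd86* 1.36 to 1.45 and *H2-T23* 0.04 to 0.24, while *Mr1* lay below it at -0.73 to -0.68. In P-ERK1/2 High against adult, under the 3 scalings that ended the call of *Mr1* (no scaling, positive controls alone and the 6 most stable housekeeping genes, in that order), *Cd74* was called at 1.94, 2.29 and 1.83, *Cd83* at 2.03, 2.38 and 1.92 and *Cd86* at 1.65, 2.00 and 1.54, while *H2-T23* was called under the first pair, at 1.39 and 1.74. The other scalings gave smaller or opposite values in this comparison: with quantile normalization *Cd74*, *Cd83* and *Cd86* lay at 0.22, 0.20 and 0.076, and with scaling to the total at -0.30, -0.21 and -0.58, and none of the 3 was called. Which scaling fits the RNA content of the cells was not tested.

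**Figure D3:**
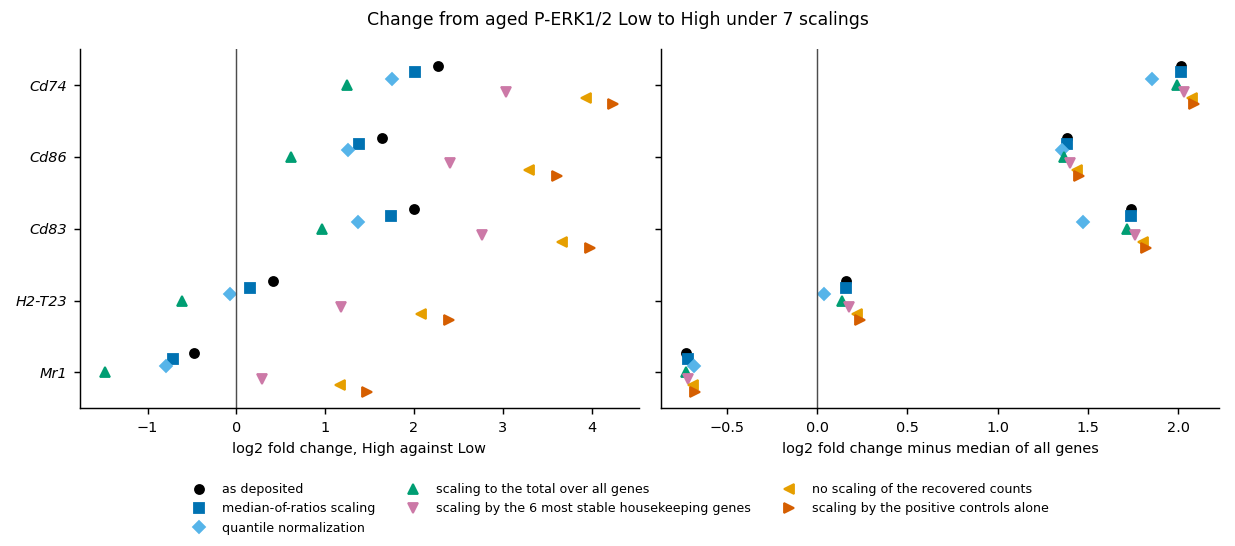
Left, log2 fold change of 5 of the genes (*Cd40*, near background, is not drawn) in P-ERK1/2 High relative to P-ERK1/2 Low under 7 scalings of the samples, 1 symbol per scaling. Right, the same after subtraction of the median over all 770 genes, where the symbols of a gene lie close together: *Cd74* stays between 1.85 and 2.09, and *Mr1* between -0.73 and -0.68.

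Genes of other steps of the pathway are given in lists compiled by function, and where a gene was above background in 0 samples of a group its values are given without a fold. The P-ERK1/2 Low background, 69.2 to 117, also reaches values that lie above background in P-ERK1/2 High. Among 7 genes of antigen processing, 1 rose and 2 fell in P-ERK1/2 High relative to P-ERK1/2 Low, with a median log2 fold change of -0.19. These 3 of 7 stand beside the 37.8% called over the panel. *Ctse*, the endosomal protease cathepsin E, had values from 69.4 to 263 in P-ERK1/2 High, all above background, and a mean of 25.9 in P-ERK1/2 Low, where it was above background in 0 of 4 samples. *Lgmn*, the endosomal protease legumain, and *Calr*, the chaperone of MHC class I folding, were lower, with means of 2208 against 4226 and 3386 against 6777. Those not called included *Ctss*, the protease that degrades the invariant chain, at -0.19, *Ifi30*, the lysosomal thiol reductase, at 0.15 and *Psmb8*, a subunit of the immunoproteasome, at -0.93. In P-ERK1/2 Low against adult *Ctse* was the 1 gene of the 7 called, from an adult mean of 71.5 with 2 of 3 samples above background, beside 10.8% of the panel called. In P-ERK1/2 High against adult *Lgmn* alone was called, at -1.05, beside 36.9% of the panel.

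Of the 3 costimulatory ligands of the TNF family, *Cd70*, the ligand of CD27, and *Tnfsf4*, the ligand of OX40, were called higher in P-ERK1/2 High relative to P-ERK1/2 Low, with P-ERK1/2 High means of 72.2 and 51.3, beside 28.2% of the panel called higher. None of the 3 exceeded background in any P-ERK1/2 Low or adult sample. The P-ERK1/2 Low background of 69.2 to 117 covers or exceeds both means. These 2 calls are therefore differences near background and are not read as a change. In 12 genes of the signalling that CD40 shares with other receptors, 3 rose and 1 fell, a share near that of the panel. *Traf6*, an adaptor of CD40 and toll-like receptors, had values of 152 to 723 in P-ERK1/2 High and was above background in 0 of 4 P-ERK1/2 Low samples, with a mean of 74.5 there. *Rela*, the NF-kB subunit p65, rose by 1.41 and *Chuk*, the kinase IKK alpha, by 1.20 on the log2 scale, and *Nfkb2*, the subunit of the noncanonical branch, changed by -1.07. The NF-kB inhibitor *Nfkbia* was called higher in both aged groups against adult, at 1.24 in P-ERK1/2 Low and 2.10 in P-ERK1/2 High. Among 8 regulators of interferon and MHC genes 2 were called, below the share of the panel: the factor *Creb1* and the acetyltransferase *Ep300* were higher in P-ERK1/2 High relative to P-ERK1/2 Low by 2.01 and 1.71 on the log2 scale, *Creb1* being above background in 2 of 4 P-ERK1/2 Low samples.

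**Figure D4:**
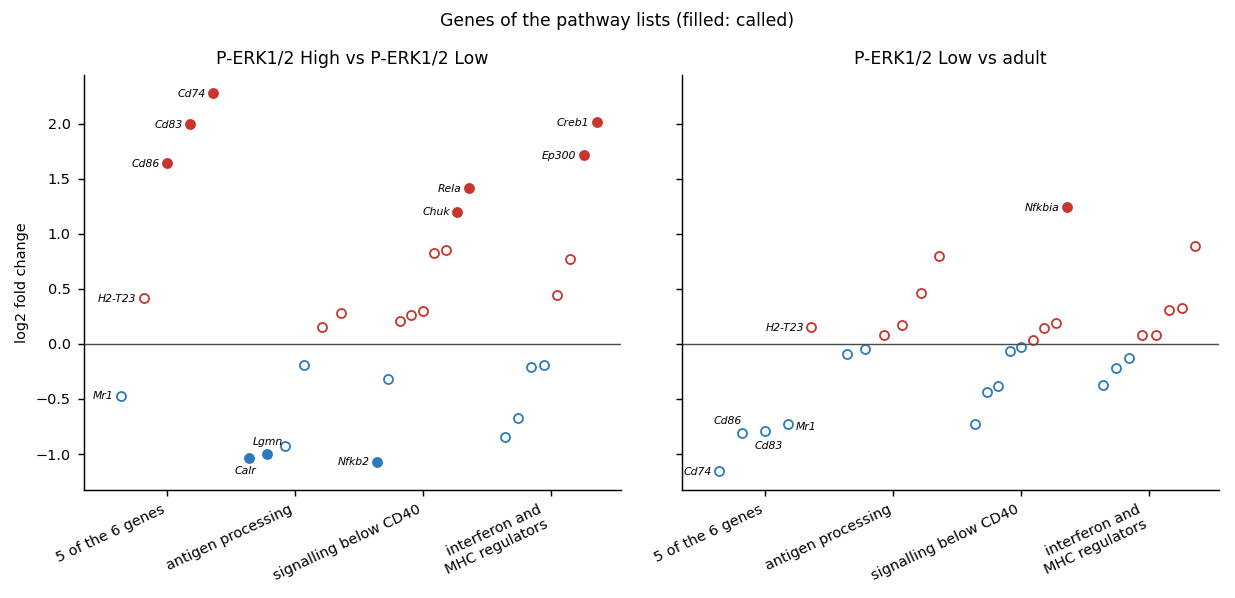
Log2 fold change of the 6 genes and of 3 pathway lists in P-ERK1/2 High relative to P-ERK1/2 Low (left) and P-ERK1/2 Low against adult (right), with filled points for called genes and without the genes above background in 0 samples of a compared group, *Cd40* among them. Each pathway list holds genes on both sides of 0, and in the right panel *Nfkbia* is the 1 gene drawn as called.

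B cells, macrophages and other presenting cells express *Cd74*, *Cd86* and *Cd83* too, and the markers of other cells are set here beside the 28.2% of all genes called higher in P-ERK1/2 High relative to P-ERK1/2 Low. The summed value of 6 B cell markers ran from 194 to 455 for P-ERK1/2 High, 140 to 179 for P-ERK1/2 Low and 75.7 to 185 for adult samples, and P-ERK1/2 High sample 7, the highest for *Cd74*, was also the highest for this sum. The defining B cell marker *Ms4a1* was above background in 0 of these 11 samples, as was *Fcrla*. In P-ERK1/2 High, *Spib* and *Tnfrsf17* were above it in 3 of 4 samples and *Tnfrsf13c* in 1 of 4, and all 6 markers in 0 of 4 P-ERK1/2 Low samples. *Blk* was the 1 of 6 called higher, at 103 to 261 in P-ERK1/2 High against a mean of 52.5 in P-ERK1/2 Low. The 12 T and NK cell markers summed to between 372 and 1229 for P-ERK1/2 High and between 209 and 312 for P-ERK1/2 Low (185 to 376 for adult samples), with 4 of 12 called higher and all 12 above background in 0 P-ERK1/2 Low samples. *Cd3e* had values of 112 to 801 in P-ERK1/2 High, and sample 5, the highest for *Cd83* and *H2-T23*, had the highest sum. Most of the sum of sample 5 came from *Cd3e* alone, at 801. Of the 12 markers, 3 were above background in 0 P-ERK1/2 High samples and 2 in all 4. For 6 markers of border macrophages and monocytes the sums were 234 to 286, 182 to 242 and 178 to 270 for P-ERK1/2 High, P-ERK1/2 Low and adult samples, with *Cd163* called, at 59.5 to 75.5 in P-ERK1/2 High and above background in 0 of 4 P-ERK1/2 Low samples. These *Cd163* values lie near the P-ERK1/2 Low background of 69.2 to 117 or under it. Oligodendrocyte markers were called for 0 of 6 genes and neutrophil markers for 1 of 4, and the neutrophil sum was 248 to 720, 324 to 439 and 618 to 1053 in P-ERK1/2 High, P-ERK1/2 Low and adult samples. Of 5 lymphocyte receptors for these molecules, 3 of which are also T and NK cell markers, 0 were called between the aged populations. Astrocyte markers were called higher for 3 of 5 genes, with sums of 1377 to 2111 for P-ERK1/2 High, 543 to 775 for P-ERK1/2 Low and 427 to 628 for adult samples. Endothelial markers were called higher for 4 of 5, with sums of 582 to 1130, 161 to 287 and 247 to 376, and neuronal genes for 3 of 10, with sums of 823 to 1207, 400 to 521 and 220 to 452, in the same order of groups. The sums of these 3 lists in P-ERK1/2 High lay above those of all P-ERK1/2 Low and kept adult samples without overlap, whereas adult sample 11, which the authors excluded, had sums of 2121, 731 and 1016. Of the microglial markers 5 of 9 were called higher, and *Csf1r* was lower without overlap but within the fold limit, at -0.84. Against adult, *Fcrls*, *Olfml3* and *Tmem119* were called lower in P-ERK1/2 Low and 0 of 9 higher, beside 10.8% of the panel called. In P-ERK1/2 High against adult 2 of 9 were called higher and 2 lower, beside 36.9% of the panel. The part of these cells, or of the higher depth of P-ERK1/2 High samples, in the values of the 6 genes was not tested. In bulk samples, fewer cells of a type and less RNA per cell cannot be told apart.

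Genes that respond to tissue dissociation differed among themselves between the aged populations. Of 8 such genes, *Atf3*, *Ccl4* and *Tnf* were called lower in P-ERK1/2 High relative to P-ERK1/2 Low, at -1.49, -1.23 and -1.57, and 0 were called higher, 3 of 8 beside 37.8% of the panel. *Fos*, *Jun* and *Ccl3* were not called, at -0.03, 0.04 and 0.51, and *Il1b*, above background in 0 P-ERK1/2 Low samples, was above it in all 4 P-ERK1/2 High samples. The P-ERK1/2 High mean of *Il1b*, 97.5, lies within the P-ERK1/2 Low background of 69.2 to 117. Against adult, *Fos*, *Egr1*, *Ccl4* and *Tnf* were called higher in P-ERK1/2 Low, at 1.80, 1.09, 1.17 and 1.27. These are 4 of 8, where 10.8% of the panel was called in that comparison. In P-ERK1/2 High against adult *Fos* and *Ccl3* were called higher, at 1.77 and 1.15, and *Atf3* lower, at -1.11, where 36.9% of the panel was called. Whether the handling of the cells bears on the 6 genes was not tested.

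Across the 11 samples, the genes of the panel most alike in pattern to each of the 6 were found by Pearson correlation of log2 values. The correlations describe differences between groups and depth as well as between samples. *Cd74* was most like *Gjb1* and *Il1a*, both at 0.96 and above background in 5 and 8 of the 11 samples, *Cd86* most like *Cflar* at 0.97, and *Cd83* most like *Tlr7* and *Cyp27a1*, both at 0.97, of which *Cyp27a1* was above background in 6 samples. *Il1a*, the gene of interleukin-1 alpha, was among the 3 nearest genes of both *Cd74* and *Cd86*. *H2-T23* was most like *Atr* at 0.91, with *Atr* above background in 7 samples. The genes nearest to *Mr1*, *Lag3* and *Tmem204*, both at 0.91, were above background in 1 of 11 samples, and *Reln*, the nearest to *Cd40*, in 0, so these likenesses are of values near background.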

How the data were processed

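Sorted microglia were profiled on the nCounter Neuroinflammation panel in 12 samples. The authors normalized the counts in nSolver (version not given in the sources used) and deposited a normalized signal value per gene and sample with no background subtracted. Division by the factor of each sample gave 99.8% of values whole within 0.1, and these recovered counts gave the depth. The control probes stood in the deposited table without the factor, so no count model was fitted. All columns were mapped to samples by number, with 0 left over. Of the 770 gene names, 763 matched a RefSeq symbol and 7 a synonym.

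Each comparison (n = 4 and 4, or 4 and 3) was fitted on log2(value + 1) with R 4.3.3 and its package limma 3.58.1, two-sided and without a filter, over the samples of its 2 groups. Fold changes are on that scale and understate the change of low genes. A call needed p under 0.01 and a change beyond 1 on the log2 scale. Benjamini-Hochberg adjustment ran over 770 genes. The scripts were tested on simulated data. The background from negative control probes replaced a list of 10 neuronal genes, which reached high counts in P-ERK1/2 High samples. This background, subtraction of the negative control mean and the scaling by positive controls were added after seeing the data. Other alternatives included all 4 adult samples, each sample left out, scaling by median of ratios, quantiles, total, the 6 housekeeping genes most stable in these samples, or not at all, only genes averaging 50 or more, a pseudocount of 0.1 or 20, a background from neuronal genes, a fit over the 3 groups, a plain test with unequal variances, and adjusted p under 0.05.

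The 6 genes, the gene lists and the rule for named genes (the 6 genes, list members, and the 3 genes most correlated with each) were chosen with earlier results of these data known. Another 2 genes were left out of the lists and are not reported here. Promoter sequences are from RefSeq, build GRCm38.p6. P-values measure the spread between pools of 2 mice. The number of samples limits the precision.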

Additional observations from a re-analysis of the deposited data

Results flagged for a closer look

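In groups of 4 samples, a value was taken to stand apart when its gap to the nearest sample, as a share of the range of the group, passed the 95% limit of Dixon's test, which chance alone passes in about 1 of 20 groups. *Cd74* in P-ERK1/2 High sample 7, at 2355.9, had a gap of 0.92 of the range. *Cd83* in P-ERK1/2 Low sample 12, at 422.53, had a gap of 0.83 of a narrow range.

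Adult sample 11, which the authors excluded, had values above all kept adult samples for *Cd86* (511.93), *Cd83* (7644.88) and *H2-T23* (657.76). Its *Cd83* value was also above all P-ERK1/2 High samples. Its summed count was 1464449, and the geometric mean of its positive controls was 286, against 954 to 1460 in the other samples.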

How the results depend on the processing

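No paired analysis was possible because each sample has a number of its own and the groups share none, and the labels do not say which aged samples, if any, came from the same mice. In P-ERK1/2 High relative to P-ERK1/2 Low, the 3 called genes were called under every setting tried except scaling to the total, where *Mr1* (-1.47) was called instead, and, for *Cd83*, the plain test. *Cd40*, at background, passed the thresholds with total scaling, median-of-ratios scaling, quantile normalization and adjusted p alone, and *Mr1* did so with the neuron-gene background subtracted (-4.57, a value set by the floor of 1). No scaling and scaling by positive controls called 5 of the 6 and 596 and 659 genes of the panel, and the plain test called 189 genes. Leaving out each sample gave 3 of the 6 and 235 to 310 genes. Directions turned for *Mr1* without scaling (1.17), with positive controls (1.48) and with the 6 most stable housekeeping genes (0.29), for *H2-T23* with quantile normalization (-0.068) and total scaling (-0.61). For *Cd40* the differences without scaling (0.72), with positive controls (1.01) and after subtraction of negative controls (0.42) were above 0, but its values lie at background and give no direction.

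In P-ERK1/2 Low against adult, *Cd74* alone was called with a pseudocount of 20, a mean of at least 50, median-of-ratios scaling, the 6 housekeeping genes or adjusted p with the fold limit, and *Cd86* alone, 1 of the 6, after subtraction of negative controls. All 4 adult samples gave 2, adjusted p alone and quantile normalization 3 (*Cd74*, *Cd86* and *Cd83*), total scaling 4 (these and *Mr1*), and no scaling and positive controls 5 (these and *Cd40*). Leaving out each sample gave 0 to 1. The panel count of 83 became 240, 226, 54, 201 and 34 with no scaling, positive controls, the plain test, adjusted p alone and all 4 adult samples. *H2-T23* turned with all 4 adult samples (-0.18), no scaling (-0.69), quantile (-0.10), positive controls (-0.65) and total scaling (-0.23).

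In P-ERK1/2 High against adult, 1 of the 6 was called with a pseudocount of 20, a mean of at least 50, subtraction of negative controls, or the plain test, 3 with the 6 housekeeping genes (*Cd74*, *Cd86* and *Cd83*) or either rule on adjusted p (*Cd74*, *Cd40* and *Mr1*), 4 without scaling or with positive controls, and 0 with all 4 adult samples. *Cd40* lost its call without P-ERK1/2 High sample 8, adult sample 1 or adult sample 10, and leaving out each sample gave 1 to 4. The panel count of 284 became 173 with the plain test and 49 with all 4 adult samples. Total scaling turned *Cd74* (-0.30), *Cd86* (-0.58), *Cd83* (-0.21) and *H2-T23* (-0.84), and quantile normalization *H2-T23* (-0.17). Causes were not tested. Counts near background limit *Cd40* in all groups, and *Mr1*, *Cd74* and *Cd86* in P-ERK1/2 Low.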
